A study of Mus musculus with 40 samples.

Results

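Exo1, Brca1, Brca2, Fancd2, Fanci, Blm, Rad54l and Brip1, 8 genes of homologous recombination and the Fanconi anaemia pathway, were followed in regenerating mouse liver. Of the 11119 entries that every table held, 6 were the genes' own (Exo1, Brca1, Brca2, Fancd2, Blm and Brip1). Fanci and Rad54l were found only in entries joined with an overlapping gene, Polg and Lrrc41. In livers without inhibitor, the 6 genes stood higher at 48 h after hepatectomy than at 0 h at both ages, and by 72 h most of that difference was gone. With an ATR inhibitor the means of all 6 were slightly higher at 48 h in 12-month mice and at 72 h in 3-month mice, without passing a test. Of all entries, 0.018% and 0.00899% passed that test in these settings. No gene of the 6 passed the test of a difference in the inhibitor's effect between these settings and 72 h in 12-month mice, where the lowest adjusted p by limma was 0.109. In each such contrast 1 of the 11119 entries passed (0.00899%).

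Homologous recombination repairs a broken or stalled chromosome by copying the sister chromatid: the end is resected to single-stranded DNA, which then invades a homologous strand. The Fanconi pathway handles crosslinks between the DNA strands and protects stalled forks, and its central step is the ubiquitination of the FANCD2-FANCI pair. Both act mainly in S and G2 phase, whereas most hepatocytes of an adult liver are quiescent and re-enter the cell cycle after part of the liver is removed. ATR is the kinase that senses single-stranded DNA at stalled forks and restrains origin firing and entry into mitosis.

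The study profiled polyadenylated RNA in 40 liver samples by RNA-seq, in 9 groups. ATR inhibitor (ATRi in the labels, given at 24 h after partial hepatectomy, with a dose code that carries no unit) was given to 3 mice of 12 months taken at 48 h, to 4 mice of 12 months taken at 72 h and to 4 mice of 3 months taken at 72 h. Mice without inhibitor were 3 of 12 months and 3 of 3 months at 48 h, 4 of 12 months and 4 of 3 months at 72 h, and 8 of 12 months and 7 of 3 months at 0 h, before hepatectomy. Strain and sex were not given in the sources used here, and 3 of the 3-month mice at 0 h carry wt in their names. By their numbers, 12 mice were measured at both 0 h and 72 h, 8 of 12 months and 4 of 3 months.

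Levels are the authors' log2 sigma values, whose definition was not given in the sources used here. Differences were therefore taken for 1 gene between samples and never between genes. Levels of several genes or lists are printed together only to describe them. A difference of 1 is a factor of 2 on that scale. For each group the authors gave 1 mean over the mice, with no spread. Values of single mice were given for 1 group, the 12-month mice with the inhibitor at 72 h (n = 4), and the main tests were made only for comparisons that hold this group. For other comparisons limma was run as an alternative, with the spread of these 4 livers borrowed. The depth of sequencing is unknown, and the lowest level over all genes lay between 0.05 and 0.55 in the tables. The labels call the cells hepatocytes, and the 11 measured hepatocyte markers of 14 listed averaged 8.71 to 9.21 over the 9 groups. Markers of other liver cells were also present, with means of 3.39 to 5.24 for 9 Kupffer cell and macrophage markers of 13 listed and of 1.36 to 4.12 for 7 neutrophil markers of 11 listed. In such bulk samples, a change in the number of cells of a type and a change in RNA per cell cannot be told apart.

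The genes lie on 6 chromosomes in the GRCm38 build. Exo1, an exonuclease of end resection and mismatch repair, spans chr1:175880581-175913489 on the plus strand (32.9 kb). Brca1, a ubiquitin ligase that promotes end resection, spans chr11:101488764-101551955 on the minus strand (63.2 kb). Brca2, a mediator of strand exchange, spans chr5:150522630-150570329 on the plus strand (47.7 kb). Fancd2, a member of the ubiquitinated Fanconi pair, spans chr6:113531682-113597017 on the plus strand (65.3 kb). Blm, a RecQ helicase that resects ends and dissolves double Holliday junctions, spans chr7:80454733-80535119 on the minus strand (80.4 kb). Brip1, the BRCA1-bound helicase FANCJ, spans chr11:86058138-86201193 on the minus strand (143.1 kb). Fanci spans chr7:79391929-79450264 on the plus strand and shares 4034 bp with Polg on the other strand. Rad54l, a DNA translocase of recombination, spans chr4:116094264-116123690 on the minus strand and shares 2780 bp with Lrrc41 on the other strand. Since the counting is not known to use strand, values of the joined entries Fanci--Polg and Lrrc41--Rad54l cannot be assigned to either gene.

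Because the 6 genes shared a time course, the RefSeq promoter windows (GRCm38.p6, 250 bases before to 50 after the start) were searched on both strands for letters of known cell cycle elements. Windows were found for 6 of the 8 genes, Brca1, Brca2, Fanci, Blm, Rad54l and Brip1. The 4 windows below hold a match in genes with an entry of their own and show how differently such matches lie. They are the bases before the start on the gene's strand, 5′ to 3′, at chr11:101551956-101552205 for Brca1 (minus strand), chr5:150522371-150522620 for Brca2 (plus strand), chr7:80534999-80535248 for Blm (minus strand) and chr11:86201194-86201443 for Brip1 (minus strand). Capitals mark CCAAT or its reverse complement ATTGG in Brca1, Blm and Brip1, and the reverse complement of TTTCCCGC in Brca2.
Brca1: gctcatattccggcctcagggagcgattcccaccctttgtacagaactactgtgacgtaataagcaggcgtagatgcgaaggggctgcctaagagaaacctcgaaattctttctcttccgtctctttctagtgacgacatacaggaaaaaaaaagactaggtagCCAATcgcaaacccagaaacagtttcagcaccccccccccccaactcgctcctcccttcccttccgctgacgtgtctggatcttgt
Brca2: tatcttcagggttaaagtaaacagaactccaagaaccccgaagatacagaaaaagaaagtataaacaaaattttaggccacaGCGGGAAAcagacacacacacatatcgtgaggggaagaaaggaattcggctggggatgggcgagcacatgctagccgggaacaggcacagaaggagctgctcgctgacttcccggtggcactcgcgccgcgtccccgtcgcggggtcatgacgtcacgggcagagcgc
Blm: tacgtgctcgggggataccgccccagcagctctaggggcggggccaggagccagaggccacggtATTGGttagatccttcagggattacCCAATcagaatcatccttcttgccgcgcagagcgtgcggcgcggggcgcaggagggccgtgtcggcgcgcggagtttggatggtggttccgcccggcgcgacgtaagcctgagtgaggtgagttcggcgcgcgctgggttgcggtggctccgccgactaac
Brip1: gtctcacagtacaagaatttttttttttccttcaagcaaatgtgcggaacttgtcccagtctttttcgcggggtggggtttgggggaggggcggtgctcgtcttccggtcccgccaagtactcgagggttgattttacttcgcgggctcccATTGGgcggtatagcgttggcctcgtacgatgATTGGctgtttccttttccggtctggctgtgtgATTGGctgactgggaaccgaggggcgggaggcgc
The E2F spellings TTTCCCGC, TTTCGCGC, TTTGCCGC and TTTGGCGC were found in Brca2 alone of the 6 genes with a window, on the minus strand at base -168 from the start, and 2.26% of all 32851 promoters held at least 1 of them. CCAAT lay at -86 in Brca1, at -186 and -161 in Blm, at -99, -67 and -34 in Brip1, and in the window of Rad54l, against 37.4% of all promoters. The cell cycle homology spellings TTTGAA and TTCGAA were in none of the 6 genes' windows and in 19.2% of all promoters. No motif searched was shared by all 6 windows, and a match is only a match of letters. The Brca1 window also holds the start of Nbr1 on the other strand. Nbr1 measured 7.21 at 48 h against 7.14 at 0 h in 12-month mice, and 7.25 at 48 h against 7.35 at 0 h in 3-month mice, differences of 0.07 and -0.10.

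The time courses of the 6 genes had one shape, with the highest level at 48 h. Exo1 was at 2.39 at 48 h and 0.94 at 72 h with the inhibitor in 12-month mice and at 1.29 at 72 h in 3-month mice. Without it, Exo1 was at 0.58, 2.30 and 1.32 at 0, 48 and 72 h in 12-month mice and at 0.61, 2.11 and 1.0 in 3-month mice. The Exo1 mean at 48 h was the highest of its course at both ages. Brca1 was at 2.32 at 48 h and 1.51 at 72 h with the inhibitor in 12-month mice and at 1.32 at 72 h in 3-month mice. Without it, Brca1 was at 0.81, 1.94 and 1.34 at 0, 48 and 72 h in 12-month mice and at 0.79, 1.92 and 1.18 in 3-month mice. The Brca1 courses of the 2 ages lay within 0.16 of each other at every time without inhibitor. Brca2 was at 3.16 at 48 h and 1.53 at 72 h with the inhibitor in 12-month mice and at 2.05 at 72 h in 3-month mice. Without it, Brca2 was at 1.73, 2.96 and 1.80 at 0, 48 and 72 h in 12-month mice and at 2.13, 2.45 and 1.85 in 3-month mice. Brca2 was the one gene of the 6 whose 0 h level in 3-month mice exceeded its 72 h level in all 4 groups taken then.

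Fancd2 was at 2.28 at 48 h and 1.16 at 72 h with the inhibitor in 12-month mice and at 1.61 at 72 h in 3-month mice. Without it, Fancd2 was at 0.54, 1.99 and 1.22 at 0, 48 and 72 h in 12-month mice and at 0.55, 1.87 and 1.17 in 3-month mice. The Fancd2 courses of the 2 ages also peaked at 48 h. Blm was at 2.39 at 48 h and 1.34 at 72 h with the inhibitor in 12-month mice and at 1.54 at 72 h in 3-month mice. Without it, Blm was at 1.03, 2.18 and 1.42 at 0, 48 and 72 h in 12-month mice and at 1.24, 2.18 and 1.22 in 3-month mice. Blm was thus back at its 0 h level by 72 h in untreated 3-month mice. Brip1 was at 1.84 at 48 h and 1.26 at 72 h with the inhibitor in 12-month mice and at 1.29 at 72 h in 3-month mice. Without it, Brip1 was at 0.92, 1.77 and 1.17 at 0, 48 and 72 h in 12-month mice and at 1.06, 1.51 and 1.17 in 3-month mice. Brip1 had the narrowest range over the 9 groups, 0.93, against 1.81 for Exo1.

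**Figure D1:**
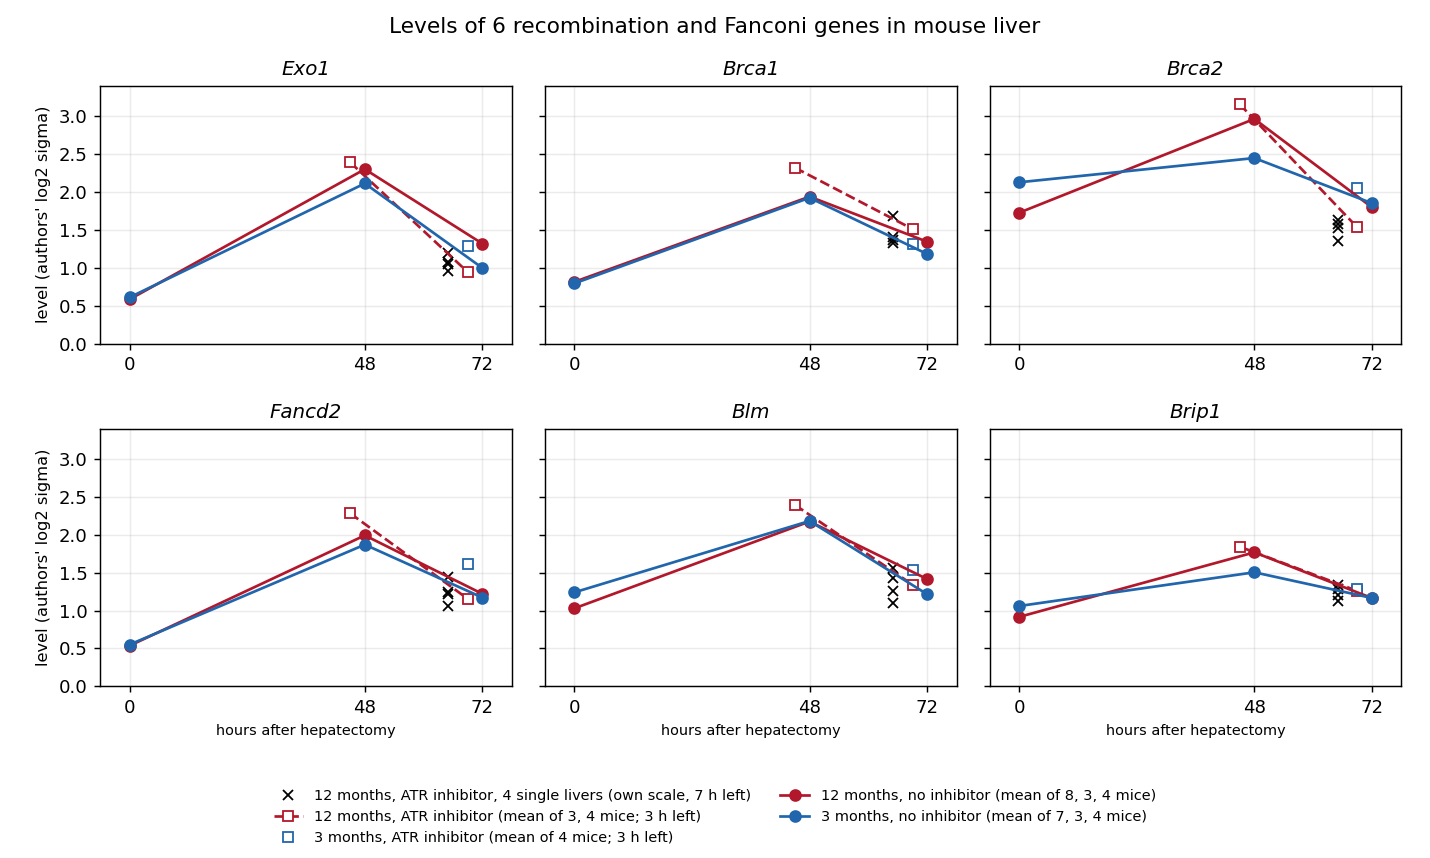
Levels of the 6 genes (authors' log2 sigma, y axis) against hours after hepatectomy (x axis), with filled circles for means without inhibitor, open squares for means with the ATR inhibitor and crosses for the 4 mice given one by one (inhibitor, 12 months, 72 h); red is 12 months, blue 3 months, and inhibitor points are set to the left of their time. Every gene peaks at 48 h, and the highest of the 9 means is the ATRi mean at 48 h, from 1.84 for Brip1 to 3.16 for Brca2.

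At 48 h, all 6 genes were higher than at 0 h at both ages. In 12-month mice the differences were 1.72 for Exo1 (3.29-fold), 1.46 for Fancd2, 1.24 for Brca2, 1.15 for Blm, 1.12 for Brca1 and 0.85 for Brip1. In 3-month mice they were 1.5 for Exo1 (2.83-fold), 1.32 for Fancd2, 1.13 for Brca1, 0.94 for Blm, 0.44 for Brip1 and 0.32 for Brca2. These are differences of 2 means with no spread of their own, so a gene was counted where the difference was 1 or more. By that count 5 of 6 genes were higher at 12 months, where 3.26% of all entries were, and 3 of 6 at 3 months, where 3.76% were. Counting any difference above 0, all 6 were higher at each age, against 48.1% of entries at 12 months and 39.2% at 3 months. The median of the 6 was 1.19 at 12 months and 1.04 at 3 months, against medians of -0.02 and -0.09 over all entries. With the liver spread borrowed, all 6 passed by limma as higher at 12 months (adjusted p from 0.00083 for Exo1 to 0.00629 for Brip1), where 5.46% of entries did. At 3 months 5 of 6 passed by limma, where 6.49% of entries did, and Brca2 did not (adjusted p = 0.203). The ATRi mean at 48 h, set against the same 0 h mice of 12 months, was higher by 0.93 for Brip1 to 1.81 for Exo1, and 5 of 6 genes reached 1, against 3.53% of entries. All these differences start from the 0 h level, which was low for Fancd2 (0.54 at 12 months, 0.55 at 3 months) and Exo1 (0.58 and 0.61). The lowest 0 h level over all entries was 0.381 at 12 months and 0.393 at 3 months.

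Genes of the same pathways that were listed beside the 6 did not all move in this way at 48 h. Of the mediator and resection genes of recombination, 25 of 28 were measured. At 12 months 23 were higher and 9 of them by 1 or more (median 0.65), and at 3 months 19 were higher and 7 of them by 1 or more (median 0.41). Fignl1, an ATPase of recombination, measured 5.37 at 48 h against 1.45 at 0 h in 3-month mice, a difference of 3.92, with 3.64 at 12 months. Mcm8, a helicase subunit used in recombination, differed by 1.49 at 12 months and 1.35 at 3 months. The Fanconi core complex and its ubiquitin cycle had 9 of 16 genes measured, with medians of 0.45 at 12 months and 0.81 at 3 months. Ube2t, the E2 enzyme that ubiquitinates FANCD2, differed by 2.65 at 12 months and 2.77 at 3 months, and Fancb, a core subunit, by 1.91 and 1.82 at those ages. Fancf, another core subunit, differed by -1.17 at 3 months.

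The other lists held few genes as high as the 6. Of the helicase partners and the dissolution and resolution genes, 9 of 10 were measured, with medians of 0.20 at 12 months and -0.09 at 3 months. Gen1, a Holliday junction resolvase, differed by 1.29 at 12 months and 0.89 at 3 months. The downstream Fanconi nucleases and translesion genes (4 of 9 measured) had medians of 0.23 at 12 months and -0.02 at 3 months and no gene at 1. The BRCA1-A complex, which targets BRCA1 to ubiquitin at breaks, had 4 of 5 genes measured, with medians of 0.06 at 12 months and -0.10 at 3 months and no gene at 1. End joining, the repair route that needs no template, had 10 of 13 genes measured and medians of 0.03 at 12 months and -0.05 at 3 months, with Polq, the polymerase of microhomology-mediated joining, highest at 0.96 at 12 months and 0.99 at 3 months. Mismatch repair had 6 of 8 genes measured and medians of 0.06 at 12 months and 0.05 at 3 months, with Pcna, the sliding clamp of replication, highest at 1.04 at 12 months and 0.79 at 3 months.

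Cell cycle genes were higher at the same time. The 14 measured S phase genes of 17 had medians of 1.82 at 12 months and 1.83 at 3 months, and the 9 measured genes of cycling cells of 10 had medians of 4.10 at 12 months and 4.29 at 3 months. All 9 of the cycling-cell genes and 13 of 14 S phase genes differed by 1 or more at each age. Markers of other liver cells differed over the same time. At 12 months all 9 macrophage markers were lower (median -0.89, mean level 3.39 at 48 h against 4.36 at 0 h), and 6 of 7 neutrophil markers were lower (median -0.59, mean level 1.59 at 48 h against 3.0 at 0 h). At 3 months 5 of 9 macrophage markers were lower (median -0.20, mean level 3.69 at 48 h against 3.62 at 0 h), and 5 of 7 neutrophil markers were higher (median 0.26, mean level 1.68 at 48 h against 1.38 at 0 h). Of 10 measured sinusoidal endothelial markers of 12 listed, 8 were lower at 12 months and 10 at 3 months. The part of cycling and other cells in the 6 genes' levels was not tested.

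**Figure D2:**
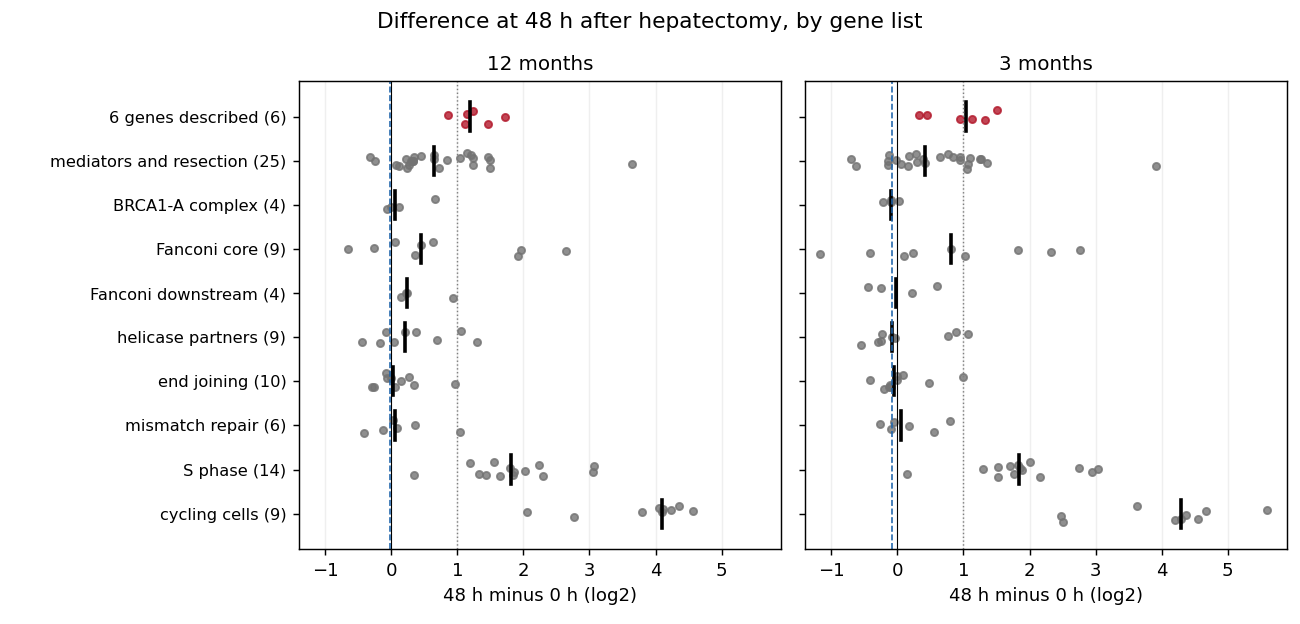
Difference between 48 h and 0 h without inhibitor (log2, x axis) for each measured gene of 10 lists (rows, with the number measured), at 12 months (left) and 3 months (right); dots are genes, black bars list medians, the dashed line the median of all entries and the dotted line a difference of 1. The 6 genes have medians of 1.19 and 1.04, between those of the mediator and resection list (0.65 and 0.41) and the S phase list (1.82 and 1.83).

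At 72 h, the 6 genes were lower than at 48 h at both ages. In 12-month mice without inhibitor the 72 h mean differed from the 48 h mean by -1.17 for Brca2, -0.98 for Exo1, -0.77 for Fancd2, -0.76 for Blm, -0.60 for Brca1 and -0.60 for Brip1. In 3-month mice the differences were -1.12 for Exo1, -0.97 for Blm, -0.74 for Brca1, -0.70 for Fancd2, -0.60 for Brca2 and -0.34 for Brip1. A single gene was lower by 1 or more at each age, Brca2 at 12 months and Exo1 at 3 months, where 1.89% and 3.04% of entries were. The median of the 6 was -0.77 at 12 months and -0.72 at 3 months, against -0.10 and -0.02 over all entries. Of the mediator and resection list, 24 of 25 genes were lower at 12 months (median -0.76), and all 14 S phase genes were (median -0.84). In the 12-month mice macrophage and neutrophil markers went the other way over the same time. All 9 macrophage markers were higher, with a median of 2.06 and a mean level of 5.24 at 72 h against 3.39 at 48 h, and 6 of 7 neutrophil markers were higher, with a mean level of 3.82 at 72 h against 1.59 at 48 h. In 3-month mice the macrophage mean was 4.04 at 72 h against 3.69 at 48 h. There 5 of 7 neutrophil markers were lower (median -0.24), with a mean level of 1.56 at 72 h against 1.68 at 48 h. Some neutrophil markers lay near the lowest level over all entries. At 48 h Ltf was at 0.32 in 12-month and 0.37 in 3-month mice, where the lowest levels were 0.264 and 0.284. At 72 h in 3-month mice Mpo was at 0.17, where the lowest level was 0.081. The part of both lists in the result was not tested.

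Against 0 h, what was left at 72 h was smaller than at 48 h. In 12-month mice the difference was 0.73 for Exo1, 0.68 for Fancd2, 0.53 for Brca1, 0.39 for Blm, 0.25 for Brip1 and 0.07 for Brca2. No gene reached 1, where 2.92% of entries were higher by as much, and all 6 were above 0, against 39.9% of entries. With the liver spread borrowed, Exo1 (limma adjusted p = 0.00919), Fancd2 (0.0156) and Brca1 (0.0366) passed, where 12.8% of entries did in either direction. In 3-month mice the difference was 0.62 for Fancd2, 0.39 for Exo1, 0.39 for Brca1, 0.11 for Brip1, -0.02 for Blm and -0.28 for Brca2. Again no gene reached 1, against 2.46% of entries, and 4 of 6 were above 0, against 39.3% of entries. With the liver spread borrowed, Fancd2 (limma adjusted p = 0.0183) and Exo1 (0.0473) passed, where 15.1% of entries did in either direction. With the inhibitor, the 3-month mice stood 1.06 above the same 0 h mice for Fancd2, the one gene of 6 to reach 1 (2.01% of entries did), followed by 0.68 for Exo1 and 0.52 for Brca1.

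Without inhibitor, no gene of the 6 differed by 1 or more between ages. Before hepatectomy the 12-month mean differed from the 3-month mean by -0.40 for Brca2, -0.21 for Blm and -0.14 for Brip1, and by 0.03 or less in size for the other 3 genes. None reached 1, against 1.27% of entries. Those other 3, Fancd2, Exo1 and Brca1, were low at 0 h. Of all entries, 3.7% at 12 months and 4.1% at 3 months were lower than Fancd2. For Exo1 the shares were 5.4% and 5.8%, and for Brca1 13.8% and 12.5%. How far such low levels limit these differences was not tested. At 48 h the differences were 0.52 for Brca2, 0.26 for Brip1, 0.19 for Exo1 and 0.12 for Fancd2, with 0.02 for Brca1 and -0.01 for Blm, and none reached 1, against 1.36% of entries. At 72 h they lay between -0.05 for Brca2 and 0.32 for Exo1, and none reached 1, against 2.74% of entries. Brca2 was the gene whose 48 h response differed most between ages: 1.24 in 12-month mice against 0.32 in 3-month mice, a difference of 0.92. For the other 5 genes the responses of the 2 ages differed by 0.41 or less in size, and no gene reached 1, against 4.26% of entries. The difference for Brca2 was not tested against a spread of its own groups. With the spread of the 4 ATRi livers borrowed for it, its adjusted p by limma was 0.12.

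The inhibitor was compared with no inhibitor in 3 settings. At 48 h in 12-month mice all 6 genes were slightly higher with it, by 0.38 for Brca1, 0.29 for Fancd2, 0.22 for Blm, 0.20 for Brca2, 0.09 for Exo1 and 0.08 for Brip1. A difference above 0 was found in 49.7% of all entries and one of 1 or more in 0.324%, which no gene of the 6 reached. These differences have no spread of their own. With the liver spread borrowed, their limma standard errors were 0.13 for Exo1 and Brip1, 0.15 for Fancd2, 0.16 for Brca1, 0.17 for Brca2 and 0.18 for Blm. At 72 h in 3-month mice all 6 were again slightly higher with the inhibitor, by 0.44 for Fancd2, 0.32 for Blm, 0.29 for Exo1, 0.20 for Brca2, 0.14 for Brca1 and 0.12 for Brip1. Here 49% of entries were above 0 and 0.054% reached 1, which no gene of the 6 did. With the liver spread borrowed, no gene passed in either setting by limma, with adjusted p of 0.77 (Brca1 at 48 h) or more. Of all entries, 0.018% passed at 48 h in 12-month mice and 0.00899% at 72 h in 3-month mice. With so few passing anywhere, the lack of a call does not set the 6 genes apart.

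Cell cycle genes stood higher in these settings too, but not at 72 h in 12-month mice. At 48 h in 12-month mice 14 of 14 S phase genes (median 0.29) and 9 of 9 genes of cycling cells (median 0.31) were higher with the inhibitor, and at 72 h in 3-month mice 13 of 14 (median 0.34) and 8 of 9 (median 0.35) were. Of the mediator and resection list, 16 of 25 genes were higher at 48 h in 12-month mice (median 0.16) and 22 of 25 at 72 h in 3-month mice (median 0.17), where Tonsl, a partner of MMS22L at stalled forks, led with 0.80. The medians of the 6 genes were 0.21 and 0.24 in these settings, against 0.00 over all entries in both. At 72 h in 12-month mice 13 of 14 S phase genes were lower with the inhibitor (median -0.28), and 2 passed by limma. There 17 of 25 mediator and resection genes were lower (median -0.11, with 1 passing by limma), and 5 of 9 genes of cycling cells were higher (median 0.03, none passing), against a median of 0.08 over all entries.

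At 72 h in 12-month mice no gene of the 6 passed the test against no inhibitor. The 4 ATRi livers measured 0.96, 1.04, 1.08 and 1.19 for Exo1, with a deposited mean of 0.94, against a mean of 1.32 without inhibitor. All 4 livers lay below that mean, and the difference was -0.38 (95% interval -0.64 to -0.11, limma adjusted p = 0.0726). The deposited Exo1 mean lies below every one of its 4 livers, as deposited means lie outside the livers' range for 19.2% of entries. The livers were therefore shifted gene by gene to the deposited mean for the test. With livers as deposited the Exo1 difference was -0.25 (limma adjusted p = 0.162). Brca2 measured 1.36, 1.58, 1.53 and 1.64 in the ATRi livers, against 1.80 without inhibitor. All 4 were below, with a difference of -0.26 (interval -0.63 to 0.10, limma adjusted p = 0.262). Brca1 measured 1.40, 1.36, 1.32 and 1.68 in the ATRi livers, against 1.34 without inhibitor. As deposited these livers lay on both sides of that mean. Shifted for the test they ran from 1.39 to 1.75, and all 4 lay above it. The difference was 0.17 (interval -0.16 to 0.50, limma adjusted p = 0.423).

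Fancd2 measured 1.06, 1.22, 1.25 and 1.44 in the ATRi livers (mean 1.16), against 1.22 without inhibitor, a difference of -0.06 (interval -0.37 to 0.24). Blm measured 1.26, 1.10, 1.43 and 1.56, against 1.42, a difference of -0.07 (interval -0.44 to 0.29). Brip1 measured 1.20, 1.13, 1.29 and 1.34, against 1.17, a difference of 0.09 (interval -0.18 to 0.37). For these 3 genes the livers lay on both sides of the mean without inhibitor, and the limma adjusted p was 0.745 for Fancd2, 0.760 for Blm and 0.591 for Brip1. The same liver, that of mouse M548, was the highest of the 4 for every one of the 6 genes, and their SDs ran from 0.10 to 0.20 (n = 4). In this comparison 0 of 6 genes passed by limma at an adjusted p under 0.05, against 11.4% of entries (1005 higher and 265 lower), and 1 gene, Exo1, had an unadjusted p under 0.05, as did 3813 entries. The intervals rest on 3 residual degrees of freedom and a median of 3.53 prior ones that limma borrows from all entries. They also assume that the other groups vary like these 4 livers.

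**Figure D3:**
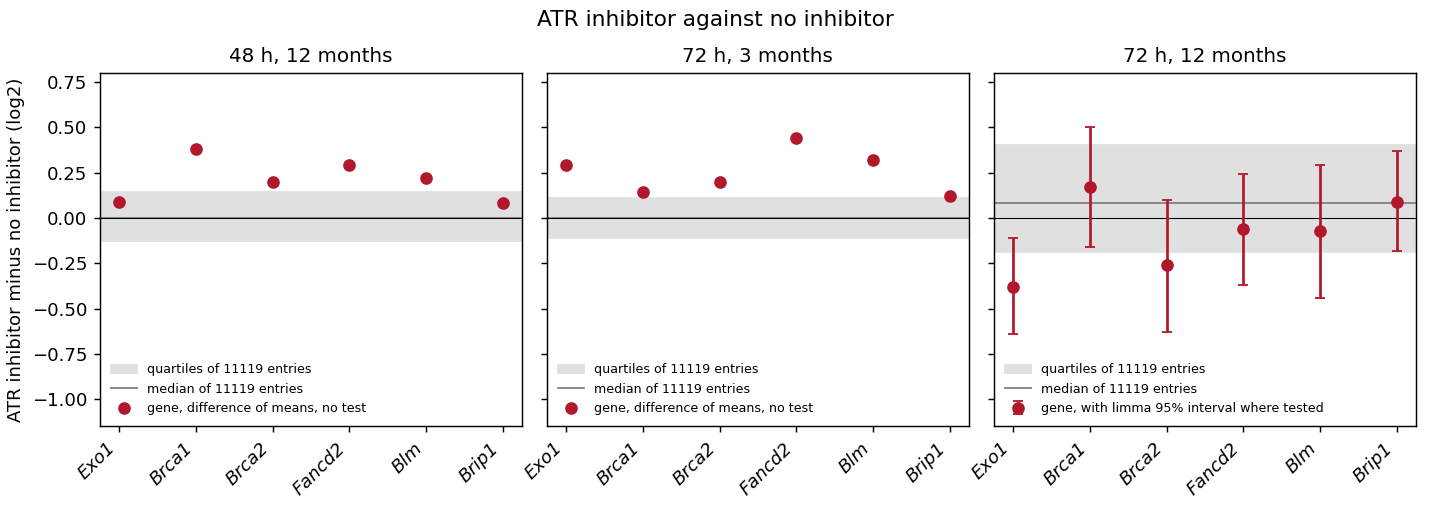
Difference between ATR inhibitor and no inhibitor (log2, y axis) for the 6 genes (x axis) in 3 settings, with 95% intervals from limma where single livers allowed a test; the grey band runs between the quartiles of all entries and the grey line their median. All 6 dots lie above 0 at 48 h in 12-month mice (0.08 to 0.38) and at 72 h in 3-month mice (0.12 to 0.44), and they lie between -0.38 and 0.17 at 72 h in 12-month mice.

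In this comparison the differences over all entries were larger for longer gene bodies, from the class of 10 to 20 kb upward. The median difference was -0.07 for genes under 10 kb, -0.10 for 10 to 20 kb and 0.04 for 20 to 40 kb. It was 0.21 for 40 to 80 kb, 0.41 for 80 to 160 kb and 0.58 for genes over 160 kb. In the other settings no length class had a median beyond 0.05 in size. Exo1 lies in the class of 20 to 40 kb, Brca1, Brca2 and Fancd2 in that of 40 to 80 kb, and Blm and Brip1 in that of 80 to 160 kb. Set against the median of their own class, an alternative added after the data were seen, the differences of all 6 genes were below 0: -0.48 for Blm, -0.47 for Brca2, -0.41 for Exo1, -0.32 for Brip1, -0.27 for Fancd2 and -0.04 for Brca1. None passed, with limma adjusted p from 0.0746 for Exo1 to 0.865 for Brca1. Over the 11 alternatives run, the adjusted p ran between 0.057 and 0.397 for Exo1 and between 0.354 and 0.865 for Brca1. The part of gene length in the result was not tested further.

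**Figure D4:**
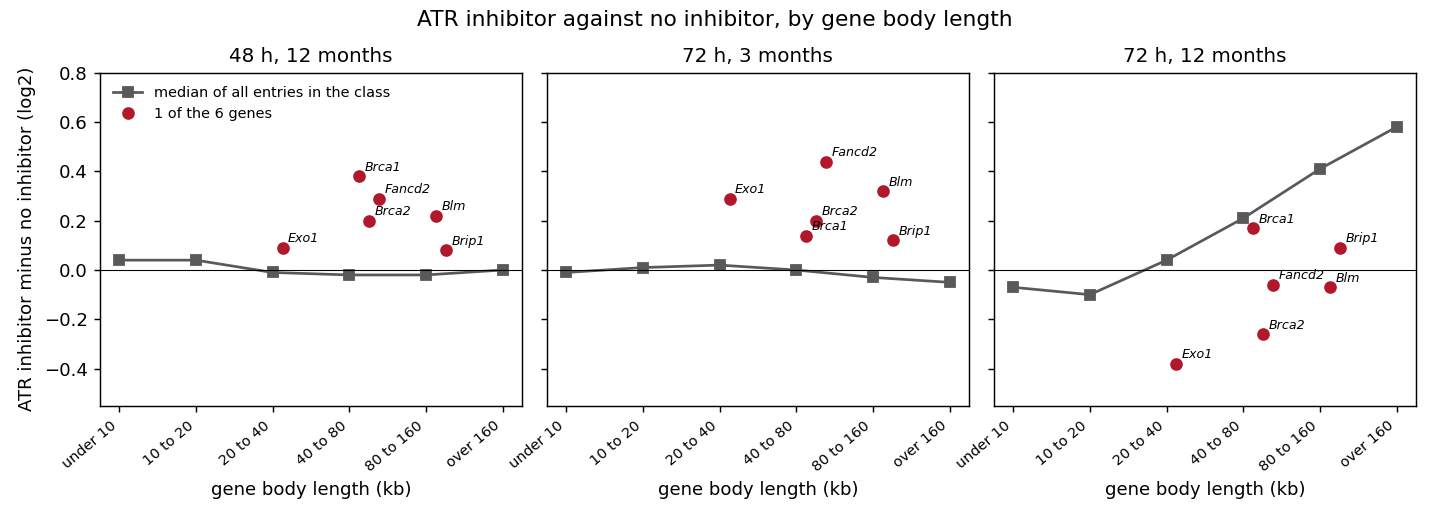
Difference between ATR inhibitor and no inhibitor (log2, y axis) against gene body length in 6 classes (x axis), with grey squares for the median of all entries in a class and red dots for the 6 genes, in 3 settings. At 72 h in 12-month mice the class medians run between -0.10 and 0.58 and the 6 genes lie below the median of their class; in the other settings the medians stay within 0.05 of 0 and the 6 genes lie above them.

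Whether the inhibitor's difference itself differed between settings was tested with the same livers. At 72 h, the 12-month difference minus the 3-month difference was -0.67 for Exo1 (interval -1.05 to -0.29, limma adjusted p = 0.109), -0.51 for Fancd2, -0.46 for Brca2, -0.40 for Blm, -0.03 for Brip1 and 0.03 for Brca1. No gene passed by limma, against 0.00899% of entries, which is 1 entry. Exo1 and Fancd2 had an unadjusted p under 0.05, as did 2708 entries. In 12-month mice, the difference at 72 h minus that at 48 h, a contrast added after the data were seen, lay between -0.47 for Exo1 and 0.02 for Brip1. Again no gene passed by limma, against 0.00899% of entries, and Exo1 had an unadjusted p under 0.05, as did 2707 entries.

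Under the inhibitor, all 6 genes fell between 48 and 72 h in 12-month mice. The 72 h mean differed from the 48 h mean by -1.63 for Brca2 (interval -2.02 to -1.24), -1.45 for Exo1 (-1.74 to -1.16), -1.13 for Fancd2, -1.05 for Blm, -0.81 for Brca1 and -0.58 for Brip1. All 6 passed by limma as lower, with adjusted p from 0.0035 for Exo1 to 0.0134 for Brip1, where 17.8% of entries did. With each mean weighted as 1 mouse, 4 of 6 passed, and Brca1 (limma adjusted p = 0.0639) and Brip1 (limma adjusted p = 0.0831) did not. The share of all entries passing under that weighting is not given here. Against genes of like length the Brip1 difference was -1.04 (limma adjusted p = 0.0043). Without inhibitor the same step was -1.17 for Brca2, -0.98 for Exo1 and -0.77 for Fancd2. Other repair genes were lower over this step as well. By limma 18 of 25 mediator and resection genes passed as lower and 1 as higher (19.4% of entries passed as higher), 6 of 9 core Fanconi genes passed as lower, and 13 of 14 S phase genes did. Rpa2, a subunit of the single-strand binding protein RPA, measured 2.96 at 72 h, a difference of -2.45 (limma adjusted p = 0.00384), and Ube2t differed by -2.15 (limma adjusted p = 0.0035). Macrophage and neutrophil markers again went the other way, with 8 of 9 and 6 of 7 passing as higher and mean levels of 5.0 at 72 h against 3.5 at 48 h and 4.12 at 72 h against 1.70 at 48 h. Their part in the result was not tested.

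Against 0 h, 4 of the 6 genes were still higher at 72 h under the inhibitor in 12-month mice. Brca1 was higher by 0.70 (1.62-fold, interval 0.41 to 0.98, limma adjusted p = 0.00467), Fancd2 by 0.62 (limma adjusted p = 0.00542), Exo1 by 0.36 (limma adjusted p = 0.0234) and Brip1 by 0.34 (limma adjusted p = 0.0279). By limma 25.6% of entries passed as higher. Blm differed by 0.31 (interval -0.00 to 0.63) and Brca2 by -0.19 (interval -0.51 to 0.12), and neither passed. Against genes of like length Brip1 turned to -0.10 (limma adjusted p = 0.415) and Blm to -0.13, and after quantile normalization Brca2 passed as lower, at -0.42 (limma adjusted p = 0.0362). With each mean weighted as 1 mouse, no gene of the 6 passed. Without the liver of mouse M547 or M548, 2 genes passed, and without that of M545 or M546, 3 and 5 did. The shares of all entries passing in these alternatives are not given here, so the counts cannot be set against them. In 12-month mice without inhibitor, the 72 h mean was also above 0 h, by 0.73 for Exo1, 0.68 for Fancd2 and 0.53 for Brca1. Each of these passed by limma with the liver spread borrowed.

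Between ages under the inhibitor, 12-month mice at 72 h had lower levels than 3-month mice for 5 of 6 genes. The share of all entries below 0 is not given here. The median of the 6 was -0.27, against 0.05 over all entries. Brca2 was at 1.53 in 12-month mice against 2.05 in 3-month mice, a difference of -0.51 (interval -0.88 to -0.15, limma adjusted p = 0.0462). Fancd2 was at 1.16 in 12-month mice against 1.61 in 3-month mice, a difference of -0.46 (interval -0.76 to -0.15, limma adjusted p = 0.0402). Exo1 differed by -0.35, Blm by -0.20, Brip1 by -0.03 and Brca1 by 0.20, and none of these passed. By limma 9.96% of entries passed as lower, against 2 of 6 genes here. Neither call was left without the liver of mouse M545, M547 or M548 or with each mean weighted as 1 mouse, and 1 was left without that of M546. Exo1 passed by limma when differences were centred on all genes (-0.39, adjusted p = 0.0432) and after quantile normalization (-0.40, adjusted p = 0.0407). Against genes of like length Blm (-0.56, adjusted p = 0.0392) and Brip1 (-0.40, adjusted p = 0.0446) passed by limma. For these alternatives the shares of all entries passing are not given here, so calls lost or gained cannot be set against them. The neutrophil markers averaged 4.12 in these 12-month mice against 1.36 in the 3-month mice, and the macrophage markers 5.0 against 3.78, and their part in the result was not tested.

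Over the 9 group means, the 6 genes followed each other closely. The Pearson r of a gene with the mean of the other 5 was 0.98 for Exo1, Blm and Brip1, 0.95 for Fancd2, 0.94 for Brca1 and 0.85 for Brca2, and the 15 pairs lay between 0.76 for Brca1 and Brca2 and 0.98 for Exo1 and Blm. These values describe 9 means, some of which come from the same mice at 0 and 72 h, and all share the 48 h peak. Of 4753 genes whose means varied with an SD of 0.3 or more, the 5 most like the mean of the 6 were Mms22l (r = 0.998), Cdc45 (0.990), Mcm8 (0.986), Topbp1 (0.986) and Traip (0.985). Mms22l had its highest mean, 2.03, in ATRi livers at 48 h and its lowest, 0.73, at 0 h in 12-month mice. The joined entries had the same course, with r of 0.96 for Fanci--Polg and 0.93 for Lrrc41--Rad54l with the mean of the 6. Fanci--Polg differed at 48 h from 0 h by 0.76 at 12 months and 0.85 at 3 months, and Lrrc41--Rad54l by 0.76 and 0.83 at those ages. Both had their highest mean in ATRi livers at 48 h, 3.29 for Fanci--Polg and 3.72 for Lrrc41--Rad54l, and at 72 h in 12-month mice they differed by -0.16 and -0.31 between ATR inhibitor and no inhibitor, which did not pass by limma.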

How the data were processed

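RNA-seq of 40 mouse liver samples was deposited as tables of 11119 entries, 507 of them joined from 2 or more genes. The deposited values are log2 sigma, the authors' own expression value; its definition, the aligner, the counting, the scaling and any filter were not given in the sources used here. The build was GRCm38/mm10, per the submitters' processing notes, and the deposited means were averaged by the authors. Depth is unknown, so no counting error can be given. No column of another sample was found.

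The 8 genes and the gene lists were chosen with earlier results of these data known. Differences of means were counted at 1 or more (log2). Where the 4 single livers enter, limma 3.58.1 (R 4.3.3) was fitted on all entries, with trend and robust moderation, means weighted by their number of mice, two-sided, Benjamini-Hochberg over all entries, called under 0.05, and tested on simulated data. P-values measure the spread between these 4 mice. From each list, up to 4 genes with the largest difference in a comparison could be named; 1 gene is not reported here and was left out of its list. Gene lengths (GENCODE M21) were matched for 93.6% of entries. Python 3.11.15 and pandas 2.3.3 made the summaries.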

Additional observations from a re-analysis of the deposited data

How the results depend on the processing

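Of 396 differences of single genes recomputed for tested comparisons, 351 kept direction and call, 22 lost the call, 6 gained it and 17 changed sign; of 336 differences of means, 318 moved by less than the liver SD and 18 by more. Called at 0.58, genes past the limit numbered 1 at 72 h against 0 h and 5 at 72 h against 48 h in 3-month mice, 2 and 6 in 12-month mice, 2 for ATRi at 72 h against 0 h in 3-month mice, and 1 for the 48 h response between ages. The share of all entries past 0.58 is not given here, so these counts cannot be set against it. With the liver spread borrowed (limma), 5 passed at 48 h against 0 h in 3-month mice, 2 at 72 h against 0 h and 4 at 72 h against 48 h there, 3 and 5 in 12-month mice, and 3 for ATRi at 72 h against 0 h in 3-month mice, where 5.78% to 15.1% of entries passed. Centred on genes of like length, 2 genes were lower by 1 or more at 72 h than at 48 h in 3-month mice. For ages under ATRi, 4 genes then passed by limma as lower at 12 months, by 0.40 to 0.65 in size. The shares of all entries under this centring are not given here.

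For that comparison of ages under ATRi, 1 gene passed with livers as deposited, 1 with no trend and no robust moderation, 0 with each mean weighted as 1 mouse, and 0 to 1 without each liver. For ATRi at 72 h against 0 h in 12-month mice, 0 passed with each mean weighted as 1 mouse and 2 to 5 without each liver. The shares of all entries in these fits are not given here either. Signs turned for small differences. For ATRi against no inhibitor at 72 h in 12-month mice, Brca1 was -0.04 and Brip1 -0.32 against genes of like length, Fancd2 0.02 with livers as deposited, and Blm -0.15 to 0.01 without each liver. Against 0 h, Blm was -0.13 and Brip1 -0.10 against genes of like length. For ages under ATRi, Brip1 was -0.07 to 0.01 without each liver. For the inhibitor difference between ages, Brca1 was -0.05 centred on all genes, -0.17 on genes of like length, -0.03 after quantile normalization, -0.04 with livers as deposited and -0.05 to 0.07 without each liver, and Brip1 -0.07 to 0.01 without each liver. For that difference between 72 and 48 h, Brip1 was -0.06 centred on all genes, -0.42 on genes of like length, -0.00 with livers as deposited and -0.02 to 0.06 without each liver. The cause was not tested. No paired analysis was possible because the groups other than 1 were given only as means, so mouse numbers shared by 0 h and 72 h groups could not enter as a block. The unknown depth limits how precisely low levels are known.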

Other observations

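Among the 67 genes of the 7 repair lists set beside the 6 genes, 4 passed by limma between ATR inhibitor and no inhibitor at 72 h in 12-month mice, where 11.4% of all entries did. Lower with the inhibitor were Rpa2, at 2.96 against 4.03 without it (-1.07, limma adjusted p = 0.0466), and Ube2t, at 2.24 against 3.19 (-0.95, limma adjusted p = 0.0441). Higher were Bre, a scaffold of the BRCA1-A complex, at 2.22 against 1.06 (1.16, limma adjusted p = 0.0433), and Xrcc4, the partner of DNA ligase IV in end joining, at 1.65 against 1.03 (0.61, limma adjusted p = 0.0429). Rpa2 and Ube2t have gene bodies of 10.4 and 11.6 kb, and Xrcc4 one of 315.6 kb. Between 48 and 72 h under the inhibitor, 36 of the 67 genes passed as lower and 4 as higher, by limma, against 17.8% and 19.4% of all entries. The 4 were Bre, Rad51b, a recombination gene with a gene body of 517.4 kb, Xrcc4 and Nhej1, an end joining factor of 158.1 kb. Their differences were 1.52 for Bre, 0.97 for Rad51b, 0.85 for Xrcc4 and 0.61 for Nhej1. These genes were singled out after their values were seen, and the part of gene length was not tested.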
